A study of Rattus norvegicus with 18 samples.

Results

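The response of neonatal rat ventricular cardiomyocytes to an adenovirus carrying sORF6 was compared with their response to an adenovirus carrying sORF8, gene by gene. The comparison used 12 of the 18 libraries: 3 of cells given the sORF6 virus, 3 of the sORF6 controls, 3 of cells given the sORF8 virus and 3 of the sORF8 controls. The test covered all 14870 genes with enough reads, of 19880 in the table. For each gene the log2 fold change of sORF6 over its own controls was the response to sORF6, that of sORF8 over its own controls was the response to sORF8, and the second subtracted from the first was the difference of responses. A negative difference therefore marks a gene that stood lower after sORF6 than after sORF8, each relative to its own controls.

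The cells came from Sprague-Dawley rats at postnatal day 2 and were ventricular cardiomyocytes that had been preplated to take away cells that attach quickly. Every group, the controls included, had been treated with phenylephrine at 20 µM for 24 h. Phenylephrine activates the alpha-1 adrenergic receptor and is a standard hypertrophic stimulus for these cells, so the effect of each virus was measured on top of that stimulus and no unstimulated cells entered the comparison. A short open reading frame (sORF) is a stretch of coding sequence too short to be annotated as an ordinary protein-coding gene. The labels gave neither the sequence of sORF6 or sORF8 nor what the control viruses carried, so the transgenes themselves could not be checked in the tables. Nothing in them tells whether replicates were cultured independently, so the p-values reflect only how far these replicate libraries scatter, and that scatter may be purely technical.

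Cardiomyocytes under hypertrophic stimulation re-express fetal genes, among them the natriuretic peptides Nppa and Nppb and the beta myosin heavy chain Myh7. Rodent ventricles also shift their balance between the alpha myosin heavy chain Myh6 and Myh7 with load and hormones. Adenoviral vectors can be sensed by infected cells, and interferon signalling then raises a large family of antiviral genes through STAT and IRF transcription factors. NF-kB raises chemokines and cytokines in the same cells and in resident macrophages, which can persist in such cultures.

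The libraries held between 15697177 and 17658137 counts, with the sORF8 controls the least deep. Values below are counts scaled to library size (CPM, with TMM factors), log2 changes carry their standard error after ±, and a gene was called when its adjusted p in edgeR's quasi-likelihood test was below 0.05. The 15 cardiomyocyte identity genes summed to between 27706 and 43135 FPKM per library, the 20 cardiac fibroblast markers to between 2316 and 2701, the 17 endothelial markers to between 121 and 136, and the leukocyte markers to between 96.7 and 120. One sORF6 control library, replicate 2, stood apart from both other sORF6 controls: its counts differed from theirs by a chi-square of 11.874 and 12.038 per degree of freedom, while no other pair within the 4 groups exceeded 3.96. Among the libraries of the sORF7 experiment, which entered the fit only to estimate the spread, sORF7 control replicate 1 stood apart as well, by 6.80 and 7.63. Where list counts moved without these libraries, the main changes are given.

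At the level of the whole transcriptome, most of the separation lay between the experiments and not between virus and control. The first principal component of the 12 libraries carried 41.1% of the variance and placed all 6 libraries of the sORF6 experiment between -21.3 and -13.2 and all 6 of the sORF8 experiment between 11.5 and 23.9. Between the control groups alone, 5709 genes were called, 38.4% of those tested. Of these, 2810 (18.9% of genes tested) were higher and 2899 (19.5%) lower in the sORF8 controls. The responses were called in far fewer genes: 572 for sORF6 (3.85%; 144 higher, 0.968%, and 428 lower, 2.88%) and 558 for sORF8 (3.75%; 302 higher, 2.03%, and 256 lower, 1.72%). The difference of responses was called in 548 genes, 3.69% of those tested, with 129 higher (0.868%) and 419 lower (2.82%) after sORF6. These shares over all genes tested are the background for the counts within gene lists below. Because each sORF was measured in its own experiment against its own controls, the sORF and the experiment cannot be told apart in this difference, and the control level of each gene is given beside its responses.

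The responses also differed in size. Of the genes called for sORF6, 136 changed at least 2-fold, 132 of them lower, whereas 11 of the genes called for sORF8 did so, 3 higher and 8 lower. Of the 548 called differences, 281 belonged to genes called for sORF6 alone of the responses, 168 to genes called for sORF8 alone, 33 to genes called for both and 66 to genes called for neither. The fold changes pointed in opposite directions, called or not, in 466 of the 548. Selection for a called difference favours opposite directions, and the share over all genes was not computed. Across 12493 genes the fold changes of the responses correlated with a Pearson r of -0.06 and a Spearman rho of 0.08, as a description over genes that share their libraries.

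**Figure D1:**
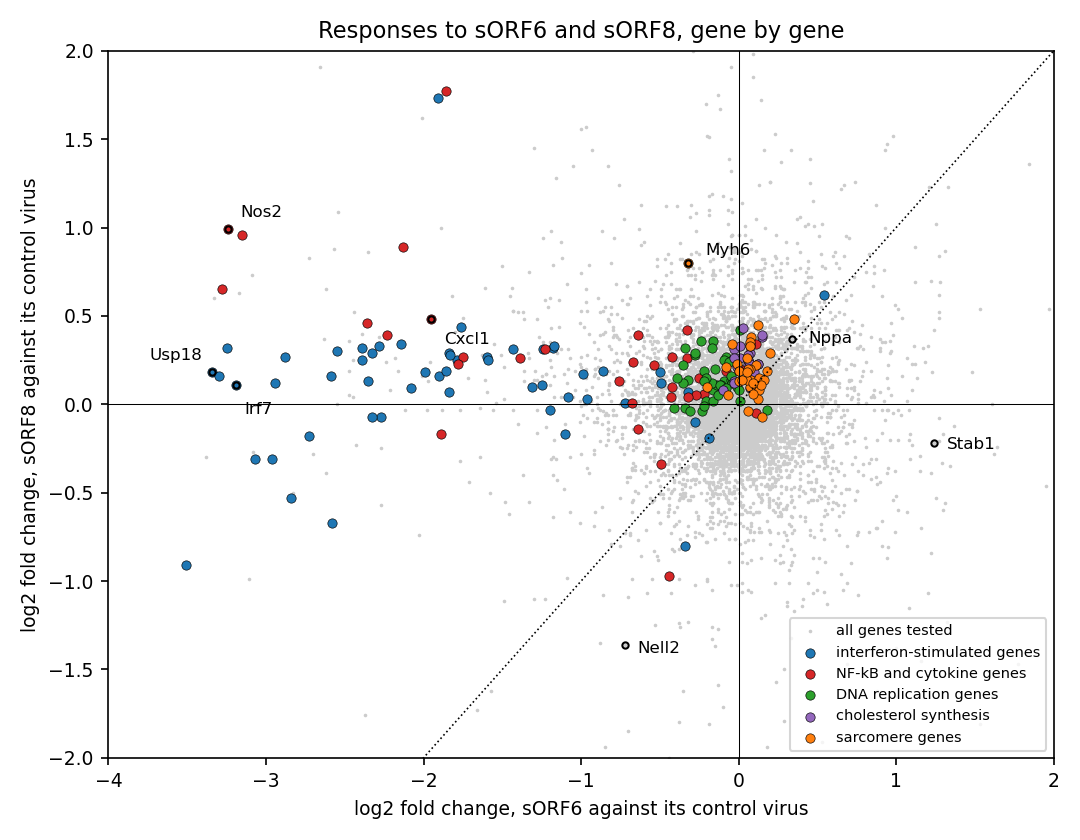
Each point is 1 of the 14870 genes tested, with its log2 fold change for sORF6 over its controls on the horizontal axis and for sORF8 over its controls on the vertical axis. The dotted line marks equal responses, colours mark the members of 5 gene lists, and 75 genes lie outside the axes. Most interferon-stimulated genes lie far to the left and near 0 on the vertical axis, Nos2 and Cxcl1 lie left and above 0, Myh6 lies left of 0 and well above it, and Nppa lies close to the dotted line.

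Interferon-stimulated genes carried the largest block of the difference. Of 54 tested, 49 were lower in the difference of responses and 0 higher, with a median difference of -2.08 against 0.00 over all genes. The same counts held for the response to sORF6, where 49 fell with a median of -1.85, a 3.60-fold drop, and 0 rose. With sORF8, 0 of the 54 were called in either direction, and the median was 0.16, with 41 of the fold changes above 0 and 13 below. The 5 members not called for the difference were Isg20, Ifit1, Oas3, Trex1 and Zbp1, and Zbp1, a sensor of Z-form nucleic acids, held less than 1 CPM in all 12 libraries.

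Promoters of these genes often held the interferon-stimulated response element, the DNA site that binds STAT-IRF complexes. The element, written as GAAA and GAAA with a pair of any bases between them, was searched on both strands in the 250 bases before the RefSeq gene start (assembly GRCr8). It was present in 22 of the 38 interferon-stimulated genes that were lower in the difference and had a promoter entry, or 57.9%. Among all tested members of the list with an entry it was present in 24 of 41, or 58.5%. The called members were thus no richer in it than their list, and the share describes the list and not the difference of responses. The share over all 27457 promoters in the table was 3.29%, and over the tested genes with an entry 2.62%. The promoters of Irf7, the transcription factor that amplifies interferon production, at chr1:205800024-205800273 (minus strand), and of Oas1b, an oligoadenylate synthetase family member, at chr12:41395853-41396102 (minus strand), are shown because both genes fell strongly. Capitals mark the matches, which in Oas1b are a pair that overlap, and a match is a description of the letters and not of binding.
Irf7: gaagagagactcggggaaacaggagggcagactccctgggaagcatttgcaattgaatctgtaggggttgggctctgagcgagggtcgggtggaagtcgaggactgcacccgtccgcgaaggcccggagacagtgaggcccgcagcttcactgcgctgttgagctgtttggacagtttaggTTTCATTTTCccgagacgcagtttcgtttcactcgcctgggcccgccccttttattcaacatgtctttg
Oas1b: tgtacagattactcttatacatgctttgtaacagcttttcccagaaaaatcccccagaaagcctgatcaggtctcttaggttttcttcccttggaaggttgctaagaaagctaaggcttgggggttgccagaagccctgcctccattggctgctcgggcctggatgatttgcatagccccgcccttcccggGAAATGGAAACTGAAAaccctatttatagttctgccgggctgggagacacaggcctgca

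Irf7 (gene on chromosome 1, 214249388 to 214252909 in Rnor_6.0) measured 89.7, 59.6 and 76.0 CPM in the sORF6 controls and 6.92, 9.11 and 8.66 CPM with sORF6. It measured 19.2, 27.8 and 22.3 CPM in the sORF8 controls and 31.5, 28.1 and 15.3 CPM with sORF8. The sORF6 libraries lay far below all others, the sORF8 libraries spanned both sides of their controls, and the sORF8 controls themselves stood well below the sORF6 controls. Irf7 fell by 3.19 ± 0.22 on the log2 scale with sORF6, changed by 0.11 ± 0.21 with sORF8 (adjusted p = 0.850), and differed between the responses by -3.30 ± 0.31 (adjusted p = 2.78e-06).

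Usp18, the protease that removes ISG15 from proteins and dampens interferon receptor signalling, measured 68.4, 45.9 and 50.6 CPM in the sORF6 controls and 4.65, 6.31 and 5.31 CPM with sORF6. In the sORF8 experiment it measured 12.4, 19.3 and 14.0 CPM in controls and 22.0, 18.6 and 11.0 CPM with sORF8. Only the sORF6 experiment separated virus from control, and the difference of responses was -3.52 ± 0.31 (adjusted p = 2.15e-06). Oas1b measured 44.7, 34.6 and 39.0 CPM in the sORF6 controls and 6.92, 8.88 and 6.75 CPM with sORF6, against 13.8, 13.0 and 11.7 CPM in the sORF8 controls and 17.8, 19.2 and 11.2 CPM with sORF8. Its difference was -2.71 ± 0.22 (adjusted p = 5.59e-07); Oas1a, a near relative whose reads may be shared with Oas1b, had a difference of -3.57 ± 0.39. Further members lower in the difference were the GTPase Mx2 (-3.06 ± 0.35), Isg15 itself (-2.77 ± 0.34), its activating enzyme Uba7 (-3.15 ± 0.33) and the chaperone Rtp4 (-3.46 ± 0.34).

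The control levels set these values in context. Between the controls, 50 of the 54 interferon-stimulated genes were lower and 1 higher in the sORF8 controls, with a median of -1.23. This comparison uses the same control libraries as both responses and is no separate support for them. With sORF6 the mean level fell below that of the sORF8 controls in 48 of the 54, and the list median was lowest in the sORF6 libraries and highest in their own controls. Relative to the mean of the sORF6 controls, the median of the list was -1.93, -1.62 and -1.90 in the sORF6 libraries, -1.35, -1.06 and -1.22 in the sORF8 controls, and -0.91, -0.90 and -1.49 in the sORF8 libraries. Leaving out sORF6 control replicate 2 left the count for the difference at 49, and 1 of the 54 was then called higher with sORF8. The count called higher with sORF8 was 2 without sORF8 replicate 3, and 2 without both libraries that stood apart.

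**Figure D2:**
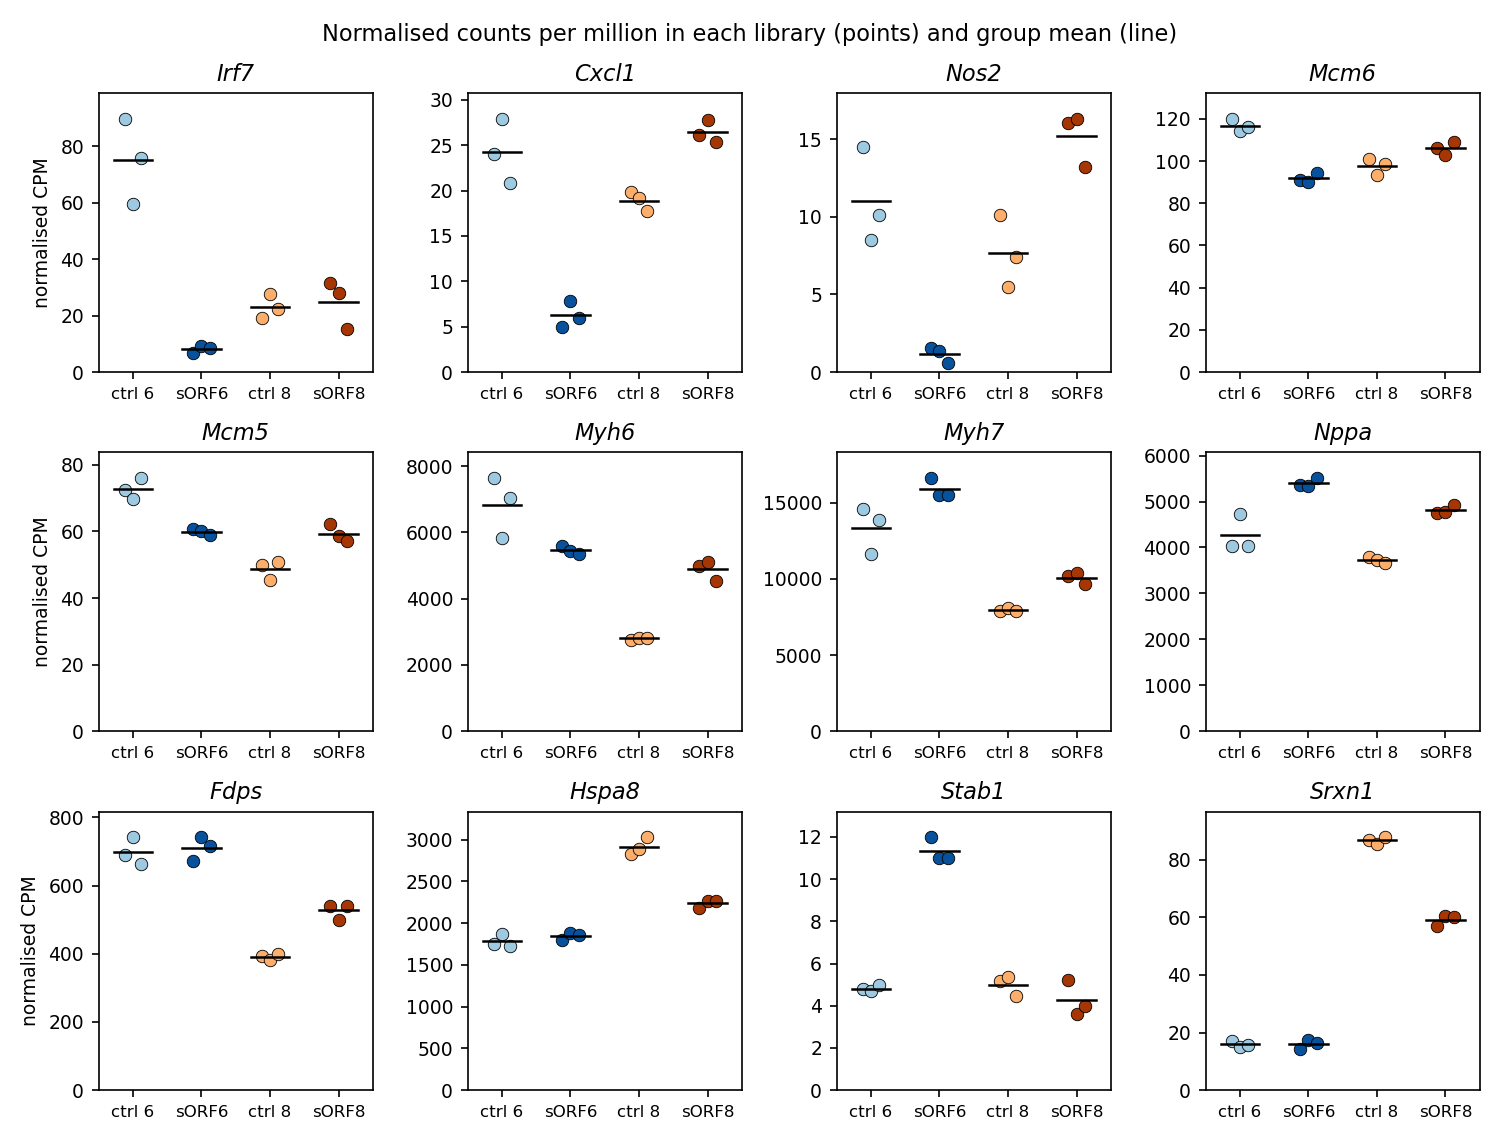
Each panel shows 1 gene, with its normalised CPM in each of the 12 libraries (points) and the group means (lines) for sORF6 controls (ctrl 6), sORF6, sORF8 controls (ctrl 8) and sORF8, on linear axes that start at 0. Irf7 is low in all 3 sORF6 libraries, between 6.92 and 9.11 CPM, Nppa is higher with each sORF than in its controls, and Myh6 is lower with sORF6 and higher with sORF8.

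Inflammatory genes of the NF-kB and cytokine list fell with sORF6, and a smaller number rose with sORF8. Of 35 tested, 27 were lower in the difference and 0 higher, with a median of -0.74. With sORF6, 24 fell and 0 rose (median -0.64). With sORF8, 7 rose and 0 fell (median 0.23), and 30 of the 35 fold changes lay above 0. The members called in opposite directions were 4: Cxcl1, Il1b, Vcam1 and Nos2. The 7 that rose with sORF8 were the chemokines Ccl20 and Cxcl1, the cytokine Il1b, the adhesion molecule Vcam1, inducible nitric oxide synthase Nos2, the NF-kB subunit Nfkb1 and the NF-kB inhibitor Tnip1. That count was small and fragile: it was 4 without sORF8 control replicate 1 or 2, 2 without sORF8 control replicate 3, 3 without sORF8 replicate 1 and 2 without sORF8 replicate 2, but 11 without both libraries that stood apart.

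The kappaB motif, to which NF-kB binds, was searched on both strands under its common degenerate form within 250 bases before the start. It occurred in 12 of the 21 members called lower in the difference that had a promoter entry, or 57.1%. Among all tested members with an entry it occurred in 15 of 27, or 55.6%, so the share describes the list and not the difference of responses. The share was 6.41% over all promoters and 8.44% over the tested genes with an entry. The promoter of the neutrophil chemokine Cxcl1, chr14:17479322-17479571 (minus strand) in GRCr8, is shown because Cxcl1 changed in opposite directions; capitals mark a pair of overlapping matches.
Cxcl1: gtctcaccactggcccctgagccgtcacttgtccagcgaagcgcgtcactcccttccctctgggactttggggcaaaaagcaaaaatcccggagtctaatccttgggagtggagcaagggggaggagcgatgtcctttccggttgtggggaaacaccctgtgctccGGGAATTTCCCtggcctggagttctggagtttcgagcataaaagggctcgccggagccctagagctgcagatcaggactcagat

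Cxcl1 measured 24.0, 27.9 and 20.8 CPM in the sORF6 controls and 4.94, 7.88 and 5.94 CPM with sORF6. It measured 19.8, 19.2 and 17.7 CPM in the sORF8 controls and 26.1, 27.8 and 25.4 CPM with sORF8. Neither virus group overlapped its controls, and the control groups themselves differed by -0.36 ± 0.11 (adjusted p = 0.0151), lower in the sORF8 controls. The response was -1.95 ± 0.13 for sORF6 (adjusted p = 2.19e-08), 0.48 ± 0.11 for sORF8 (adjusted p = 0.0170) and -2.43 ± 0.17 for the difference (adjusted p = 1.36e-07). The call for sORF8 was lost without sORF8 control replicate 2 (0.50, adjusted p = 0.0535) or 3 (0.44, 0.0931) and without sORF8 replicate 1 (0.49, 0.0504) or 2 (0.45, 0.0889), with the direction kept.

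Nos2 measured 14.5, 8.52 and 10.1 CPM in the sORF6 controls and 1.57, 1.34 and 0.577 CPM with sORF6, against 10.1, 5.46 and 7.40 CPM in the sORF8 controls and 16.0, 16.3 and 13.2 CPM with sORF8. Every sORF8 library lay above its controls and every sORF6 library below. Its difference of responses, -4.23 ± 0.40 (adjusted p = 2.78e-06), was the most negative among the genes named by the naming rule. In the deposited annotation the interval of LOC497963, a locus that rule leaves out, contains that of Nos2 on the same strand. LOC497963 moved by -2.62 with sORF6 and 0.65 with sORF8, a difference of -3.27, and reads could be divided between these entries by the estimation. Nos2 rose with sORF8 by 0.99 ± 0.24 (adjusted p = 0.0247), a call lost without sORF8 control replicate 2 (0.79, adjusted p = 0.122) or 3 (0.96, 0.0951) and without sORF8 replicate 1 (0.95, 0.0874) or 2 (0.93, 0.0993).

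Further secreted factors and proteases, of which Il1b belongs to that list, were called in opposite directions. The chemokine Cxcl3 measured 7.30, 6.66 and 4.73 CPM in the sORF6 controls, 0.873, 1.23 and 0.693 CPM with sORF6, 5.91, 7.01 and 6.33 CPM in the sORF8 controls and 11.8, 12.2 and 10.4 CPM with sORF8. Its controls were alike while the sORFs moved it apart, by -2.73 ± 0.20 and 0.83 ± 0.15 (adjusted p = 6.16e-08 and 0.00357). The macrophage chemokine Ccl3 moved by -2.35 ± 0.20 and 0.86 ± 0.16, with adjusted p = 2.94e-07 and 0.00414. The interleukin Il1b moved by -2.13 ± 0.22 and 0.89 ± 0.19, with adjusted p = 3.48e-06 and 0.00930. These 3 genes kept both calls without any 1 library. The matrix proteases Mmp9 (-1.45 and 0.61) and Mmp12 (-1.50 and 0.78) kept the fall with sORF6. The rise of Mmp9 with sORF8 was lost without any sORF8 control or sORF8 replicate 1 or 2, down to 0.53 (adjusted p = 0.133) without the first of these sORF8 libraries. That of Mmp12 was lost without any library of the sORF8 experiment or sORF6 replicate 3, down to 0.66 (adjusted p = 0.178) without sORF8 control replicate 2.

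Some inflammatory genes fell with sORF6 and were not called with sORF8. The monocyte chemokine Ccl2 measured 56.6, 59.1 and 58.2 CPM in the sORF6 controls and 14.8, 21.9 and 15.2 CPM with sORF6, against 64.0, 56.1 and 57.4 CPM in the sORF8 controls and 70.9, 70.1 and 73.6 CPM with sORF8. Its difference was -2.02 ± 0.15 (adjusted p = 2.15e-07), and its response to sORF8 was 0.27 ± 0.10 (adjusted p = 0.154) although the groups did not overlap. The siderophore-binding protein Lcn2 had a difference of -1.64 ± 0.12 and a response to sORF8 of 0.26 ± 0.09 (adjusted p = 0.111). Cxcl10, which responds to interferon and NF-kB, had a difference of -1.73 ± 0.26 and a response to sORF8 of -0.17 ± 0.19.

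Leukocyte markers took mixed directions. Of 14 tested, 11 were not called for the difference and 5 of the 14 values lay above 0, up to 1.88 for the weakly expressed C1qa. The other 3 were lower in the difference: the macrophage receptor Adgre1 (-0.89 ± 0.14), the integrin Itgam (-1.31 ± 0.24) and the integrin Itgb2 (-1.18 ± 0.14). These 3 fell with sORF6, where 6 of the 14 values lay above 0, and Itgb2 rose with sORF8 by 0.39 ± 0.09 (adjusted p = 0.0247), a call lost without sORF8 control replicate 2 (0.39, adjusted p = 0.0775) or 3 (0.34, 0.125) and without sORF8 replicate 1 (0.35, 0.111) or 2 (0.36, 0.108). Adgre1 measured 75.3, 80.4 and 68.4 CPM in the sORF6 controls, 51.5, 50 and 44.8 CPM with sORF6, 62.4, 67.5 and 61.0 CPM in the sORF8 controls and 88.9, 80.2 and 62.2 CPM with sORF8. The summed FPKM of the whole list ranged from 98.5 to 115 in the sORF6 controls, from 96.7 to 105 with sORF6, from 100 to 107 in the sORF8 controls and from 102 to 120 with sORF8, and 0 of its 18 measured members were at 0 in all libraries of a group. The part of leukocytes in the inflammatory result was not tested, and in these bulk libraries fewer cells of a type and less RNA per cell cannot be told apart. Plek and Srgn, genes of blood cell granules and cytoskeleton, also fell with sORF6 (-1.12 and -1.13) and rose with sORF8 (0.83 and 0.92). The rise of Plek with sORF8 was lost without sORF8 control replicate 1 (0.76, adjusted p = 0.0579) or sORF8 replicate 2 (0.75, 0.0657).

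**Figure D3:**
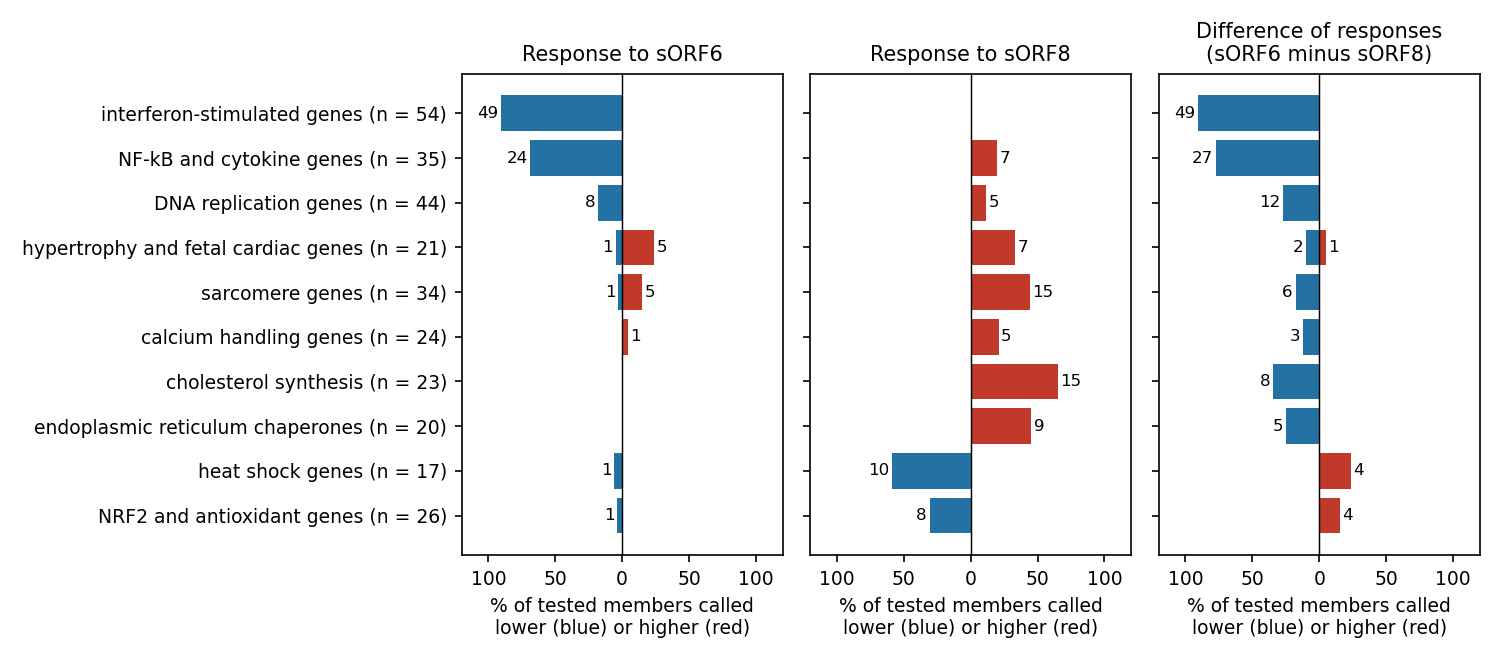
Bars give the percentage of the tested members of 10 gene lists that were called lower (blue, to the left) or higher (red, to the right) for sORF6, for sORF8 and for the difference of responses, with the number of genes beside each bar. The sORF6 panel is dominated by 49 interferon-stimulated and 24 NF-kB and cytokine genes that fell, and the sORF8 panel by 15 cholesterol synthesis and 15 sarcomere genes that rose and 10 heat shock genes that fell.

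DNA replication genes moved apart by smaller amounts. Of 44 tested, 12 were lower in the difference and 0 higher (median -0.30), 8 fell and 0 rose with sORF6 (median -0.16), and 5 rose and 0 fell with sORF8 (median 0.12). The 12 included the helicase subunits Mcm3, Mcm5 and Mcm6, the licensing factor Cdt1, the sliding clamp Pcna, the ribonucleotide reductase subunits Rrm1 and Rrm2, and the cyclins Ccne1 and Ccne2. The 5 that rose with sORF8 were Mcm5, Pole, Rrm2, E2f1 and Uhrf1. Without sORF8 control replicate 2 the count for the difference was 7 and that for the rise with sORF8 was 1; the rise was 3 without sORF8 control replicate 1 or 3 or sORF8 replicate 2, and 2 without sORF8 replicate 3. The fall with sORF6 counted 5 without sORF6 replicate 1.

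Mcm5 was the only replication gene of the list called in both responses. It measured 72.4, 69.6 and 76.1 CPM in the sORF6 controls and 60.7, 60.0 and 59.0 CPM with sORF6, against 50, 45.3 and 50.7 CPM in the sORF8 controls and 62.1, 58.5 and 57.1 CPM with sORF8. From control levels that did not overlap, the sORF6 and sORF8 libraries arrived in the same range. Mcm5 changed by -0.28 ± 0.06 with sORF6 (adjusted p = 0.00523) and by 0.28 ± 0.06 with sORF8 (adjusted p = 0.00787), a difference of -0.56 ± 0.08 (adjusted p = 2.21e-04). The call for sORF8 was lost without sORF8 control replicate 2 (0.23, adjusted p = 0.0551) or sORF8 replicate 1 (0.25, 0.0515). The E2F motif, searched as TTTNGCGC on both strands, occurred in 2 of the 10 called replication genes with a promoter entry, or 20%. It occurred in 22.2% of the tested members with an entry, so the share describes the list and not the difference of responses. The share was 1.11% over all promoters and 1.81% over the tested genes with an entry. Mcm3, also lower in the difference, held 0 matches. The 2 called genes with a match were helicase subunits, Mcm5 at chr19:13488563-13488812 (plus strand) and Mcm6 at chr13:42404353-42404602 (minus strand) in GRCr8, and the capitals below mark a pair of overlapping matches in each.
Mcm5: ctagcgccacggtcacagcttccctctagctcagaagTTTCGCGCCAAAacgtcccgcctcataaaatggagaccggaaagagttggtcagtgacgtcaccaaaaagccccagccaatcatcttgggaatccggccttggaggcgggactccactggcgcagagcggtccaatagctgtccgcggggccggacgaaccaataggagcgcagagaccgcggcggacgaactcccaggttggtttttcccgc
Mcm6: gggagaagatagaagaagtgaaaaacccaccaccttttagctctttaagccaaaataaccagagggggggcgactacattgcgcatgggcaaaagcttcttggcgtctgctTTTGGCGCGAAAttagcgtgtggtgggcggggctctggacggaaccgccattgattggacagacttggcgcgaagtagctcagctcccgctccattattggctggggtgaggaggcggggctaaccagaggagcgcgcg

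Mcm6 measured 120, 114 and 116 CPM in the sORF6 controls and 90.9, 90.2 and 94.5 CPM with sORF6, against 101, 93.4 and 98.5 CPM in the sORF8 controls and 106, 103 and 109 CPM with sORF8. It fell with sORF6 by 0.35 ± 0.04 on the log2 scale, changed by 0.12 ± 0.04 with sORF8 (adjusted p = 0.137) and differed by -0.47 ± 0.06 (adjusted p = 6.04e-05). Mcm3 was similar, with a difference of -0.46 ± 0.07 (adjusted p = 5.69e-04). The other subunits of the helicase were not called for the difference: Mcm2 stood at -0.22 ± 0.07, Mcm4 at -0.19 ± 0.06 and Mcm7 at -0.16 ± 0.07. Of 27 mitotic genes, 1, the cytokinesis scaffold Anln, was lower in the difference, or 3.70%, near the 2.82% of all genes tested, and the median was -0.09. Between the controls, 30 of the 44 replication genes and 24 of the 27 mitotic genes were lower in the sORF8 controls, with 0 higher in either list.

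The myosin heavy chain Myh6 changed in opposite directions, and its difference had the smallest adjusted p among the genes of the cardiac lists. It measured 7649, 5826 and 7029 CPM in the sORF6 controls and 5597, 5444 and 5355 CPM with sORF6. It measured 2763, 2821 and 2827 CPM in the sORF8 controls and 5000, 5111 and 4548 CPM with sORF8. Neither pair of groups overlapped, the controls lay far apart, and the levels after infection with each sORF lay near each other. Myh6 changed by -0.32 ± 0.07 with sORF6 (adjusted p = 0.0117) and by 0.80 ± 0.07 with sORF8 (adjusted p = 2.19e-06), a difference of -1.12 ± 0.10 (adjusted p = 2.15e-06). The sORF8 controls stood lower than the sORF6 controls by a log2 value of -1.29 ± 0.07.

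The call for the fall of Myh6 with sORF6 rested on single libraries, while the difference of responses was called without any 1 library, with values between -1.23 and -1.04. Without sORF6 control replicate 1 the response to sORF6 was -0.23 (adjusted p = 0.0814) and without sORF6 replicate 3 it was -0.31 (adjusted p = 0.0626). Without sORF6 control replicate 2, the library that stood apart and held the lowest Myh6 of its group, it was -0.43 (adjusted p = 4.75e-05) and the difference was -1.23 (adjusted p = 2.92e-08). Myh6 and Myh7 lie side by side on chromosome 15, and in the deposited Rnor_6.0 annotation the interval of Myh7 (33602416 to 33659093) contains that of Myh6 (33605653 to 33634249), so reads of these close relatives could be divided between them by the estimation.

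Myh7 itself rose with both. It measured 14569, 11647 and 13850 CPM in the sORF6 controls and 16642, 15529 and 15493 CPM with sORF6, against 7870, 8123 and 7913 CPM in the sORF8 controls and 10199, 10409 and 9636 CPM with sORF8. The responses were 0.25 ± 0.06 (adjusted p = 0.0217) and 0.34 ± 0.06 (adjusted p = 0.00291), with a difference of -0.09 ± 0.09 (adjusted p = 0.719). The call for sORF6 was lost without sORF6 control replicate 2 (0.16, adjusted p = 0.0618) and without sORF6 replicate 1 (0.22, adjusted p = 0.129). On the length-scaled FPKM values, the ratio of Myh6 to Myh7 was 0.507 ± 0.0123 (SD, n = 3) in the sORF6 controls and 0.341 ± 0.00714 with sORF6. It was 0.349 ± 0.00517 in the sORF8 controls and 0.481 ± 0.0111 with sORF8. The ratio thus fell in one experiment and rose in the other, without overlap in either, and the sORF6 ratios (0.333, 0.347 and 0.343) overlapped those of the sORF8 controls (0.348, 0.344 and 0.355). This ratio was chosen after the values of both genes had been seen and was not tested.

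The natriuretic peptides rose with both sORFs. Nppa, atrial natriuretic peptide, measured 4031, 4720 and 4043 CPM in the sORF6 controls and 5366, 5331 and 5517 CPM with sORF6, against 3783, 3734 and 3671 CPM in the sORF8 controls and 4755, 4782 and 4923 CPM with sORF8. Each sORF lay above its controls in every library. The responses were 0.34 ± 0.05 (adjusted p = 5.48e-04) and 0.37 ± 0.05 (adjusted p = 4.77e-04). Their difference was -0.03 ± 0.08 (adjusted p = 0.916), which does not show that the responses were equal.

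Nppb, brain natriuretic peptide, measured 1019, 1238 and 1009 CPM in the sORF6 controls and 1262, 1270 and 1304 CPM with sORF6, against 869, 872 and 850 CPM in the sORF8 controls and 1083, 1107 and 1063 CPM with sORF8. Its responses were 0.23 ± 0.06 (adjusted p = 0.0390) and 0.33 ± 0.06 (adjusted p = 0.00414), with a difference of -0.10 ± 0.09. The sORF6 control replicate 2 was again the library nearest to the sORF6 group: without it the response of Nppb to sORF6 was 0.33 (adjusted p = 9.55e-05), and without any other single library of the 12 it was not called, with values between 0.18 (adjusted p = 0.158) and 0.24.

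In all, 63 genes were called in both responses, 11.0% of the genes called for sORF6 and 11.3% of those called for sORF8. They split into 30 with the same direction, of which 17 were higher (0.114% of genes tested) and 13 lower (0.0874%), and 33 with opposite directions, of which 29 were lower with sORF6 and higher with sORF8 (0.195%) and 4 the reverse (0.0269%). All 33 of the opposite genes and 0 of the 30 same-direction genes were called for the difference. This split follows largely from how the genes were selected, because opposite changes add up in the difference and changes in the same direction subtract. These counts moved with single libraries, from 15 to 39 for the same direction and from 16 to 35 for opposite directions, and with the libraries that stood apart: without both libraries that stood apart they were 56 and 54. Same-direction counts were lowest without sORF6 replicate 1 (15), and opposite counts without sORF8 replicate 1 or 2 (16 each). They were below 20 also without sORF6 replicate 3 (18 and 19), sORF8 control replicate 2 (18 and 17) and sORF8 control replicate 3 (19 and 18), and sORF8 control replicate 1 left 19 opposite genes.

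Of the 17 genes higher in both, 7, or 41.2%, belonged to the 4 lists of hypertrophy, sarcomere, calcium handling and ion channel genes, which hold 107 of the 14870 genes tested, or 0.720%: Nppa, Nppb, Myh7, the M-band protein Myom2, the myosin-binding protein Mybpc3, the Z-disc protein Synpo2l and the calcium-binding protein Casq2 of the sarcoplasmic reticulum. These lists were chosen with earlier results of these data known, so the shares are a description and no test of enrichment. Myom2 measured 490, 471 and 450 CPM in the sORF6 controls and 634, 585 and 578 CPM with sORF6, against 191, 205 and 193 CPM in the sORF8 controls and 267, 294 and 259 CPM with sORF8. It rose from very different starting levels by 0.35 ± 0.06 and 0.48 ± 0.07 (adjusted p = 0.00256 and 3.10e-04). The T-type calcium channel Cacna1g rose by 0.20 ± 0.05 and 0.44 ± 0.06, and the laminin chain Lamb3 by 0.21 ± 0.04 and 0.19 ± 0.04. The call of Cacna1g for sORF6 (adjusted p = 0.0410) was lost without sORF6 control replicate 2 (0.14, adjusted p = 0.160) or 3, any sORF6 library, sORF8 control replicate 2 or sORF8 replicate 1. The call of Lamb3 for sORF8 was lost without sORF8 control replicate 2 (0.17, adjusted p = 0.0543) or sORF8 replicate 2 (0.16, 0.0667). Tril, a Toll-like receptor accessory protein, rose by 0.25 ± 0.04 and 0.23 ± 0.04.

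The 13 genes lower in both held 0 members of the cardiac lists. The secreted protein Nell2 measured 7.13, 4.64 and 4.39 CPM in the sORF6 controls and 3.61, 3.74 and 2.48 CPM with sORF6, against 45.2, 46.4 and 45.1 CPM in the sORF8 controls and 16.7, 19.1 and 17.6 CPM with sORF8. It fell in both experiments although its control levels differed by a log2 value of 3.08 ± 0.13. Its fall with sORF6 was -0.72 ± 0.17 (adjusted p = 0.0172), not called without sORF6 control replicate 1 (-0.46, adjusted p = 0.114) or sORF6 replicate 3 (-0.55, 0.118). The cell-cycle inhibitor Cdkn1a fell by 0.30 ± 0.03 and 0.16 ± 0.03 on the log2 scale, and the second call was lost without sORF8 control replicate 3 (-0.14, adjusted p = 0.0699) or sORF8 replicate 2 (-0.13, 0.0818). The polyamine enzyme Odc1 (-0.24 ± 0.04 and -0.19 ± 0.04) and the ephrin receptor Epha2 (-0.22 ± 0.05 and -0.28 ± 0.04) kept both calls without any 1 library.

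Only 4 genes rose with sORF6 and fell with sORF8: the caveolar coat protein Cav1, the reductase Ptgr1, the matrix protein Efemp1 and the F-box protein Fbxl7. Cav1 measured 145, 146 and 148 CPM in the sORF6 controls and 169, 164 and 172 CPM with sORF6, against 172, 166 and 165 CPM in the sORF8 controls and 139, 149 and 151 CPM with sORF8. The groups exchanged places, with responses of 0.20 ± 0.04 and -0.20 ± 0.04 (adjusted p = 0.00117 and 0.00282) and a difference of 0.40 ± 0.05 (adjusted p = 4.16e-05). Cav1 kept both calls without any 1 library. The call of Ptgr1 for sORF6 was lost without sORF6 control replicate 1 or 3 or sORF6 replicate 2 or 3, down to 0.19 (adjusted p = 0.0842). That of Efemp1 for sORF8 was lost without any library of the sORF8 experiment, with -0.21 (adjusted p = 0.145) without sORF8 replicate 3. That of Fbxl7 for sORF8 was lost without any library of the sORF8 experiment or any sORF6 library (-0.19, adjusted p = 0.130 without sORF8 replicate 2), and for sORF6 without sORF6 control replicate 1 (0.20, adjusted p = 0.0613).

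The sarcomere genes called higher in both responses were 3: Mybpc3, Myom2 and Synpo2l. Of 34 tested, 5 rose and 1, Myh6, fell with sORF6 (median 0.07), while 15 rose and 0 fell with sORF8 (median 0.18). For the difference, 6 were lower and 0 higher: Myh6, Myl2, Actn2, Myom1, Tmod1 and Pdlim3. The crosslinker Actn2 measured 3184, 3174 and 3005 CPM in the sORF6 controls and 3256, 3253 and 3158 CPM with sORF6, against 1757, 1788 and 1780 CPM in the sORF8 controls and 2133, 2160 and 2097 CPM with sORF8. The sORF6 groups overlapped and the sORF8 groups did not, with a difference of -0.22 ± 0.04 (adjusted p = 0.00348). Between the controls, 25 of the 34 sarcomere genes were lower and 2 higher in the sORF8 controls (median -0.42), a comparison that shares its control libraries with both responses. The rise with sORF6 counted 3 without sORF6 control replicate 1 or 3 or sORF6 replicate 1 or 3, and 11 without both libraries that stood apart, when the rise with sORF8 counted 25. Sarcomere genes higher in the difference were then 2, and 1 without sORF6 control replicate 2 alone.

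Of 24 calcium handling genes, 3 were lower and 0 higher in the difference, with a median of -0.01 and 11 of the 24 values above 0. With sORF6, 1 rose (4.17%, against 0.968% of all genes) and 0 fell. With sORF8, 5 rose (20.8%, against 2.03% of all genes) and 0 fell. The sarcoplasmic reticulum pump Atp2a2 measured 2739, 2802 and 2610 CPM in the sORF6 controls and 2721, 2778 and 2641 CPM with sORF6, against 1498, 1478 and 1477 CPM in the sORF8 controls and 1762, 1827 and 1709 CPM with sORF8. It did not move with sORF6 beyond the spread (0.00 ± 0.04), rose with sORF8 by 0.25 ± 0.04 and differed by -0.25 ± 0.05 (adjusted p = 0.00708). The channel Tmem38a differed by -0.36 ± 0.07 and the calcium-binding protein Hrc by -0.45 ± 0.11, the latter not called for the difference without sORF6 control replicate 3, sORF6 replicate 3, sORF8 control replicate 1 or 3 or sORF8 replicate 3 (-0.39, adjusted p = 0.0758, without the last of these). In the list of hypertrophy and fetal cardiac genes, 5 of 21 rose and 1 fell with sORF6, 7 rose and 0 fell with sORF8, and 1 was higher and 2 lower in the difference. Skeletal alpha-actin Acta1, a fetal gene of the same list, was called in neither response (0.11 ± 0.05 and 0.10 ± 0.05). The rises with sORF6, 5 in all, were 2 without sORF6 control replicate 1 or 3 or sORF6 replicate 3, and 3 without sORF6 replicate 1 or 2. The 1 gene higher in the difference, Myl4, lost its call without sORF6 control replicate 1 or 3, sORF6 replicate 2 or 3, sORF8 control replicate 1 or 3 or sORF8 replicate 1 or 2. The 2 lower, Myl7 and Acta2, became 1 without sORF6 replicate 2, sORF8 control replicate 3 or sORF8 replicate 2 or 3. The 1 fall with sORF6, Acta2, was not called without any 1 of the sORF6 controls or without sORF8 control replicate 1 or 2. It was also not called without sORF6 replicate 1 or 3 or sORF8 replicate 1 or 3, and the values lay between -0.17 and -0.11.

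**Figure D4:**
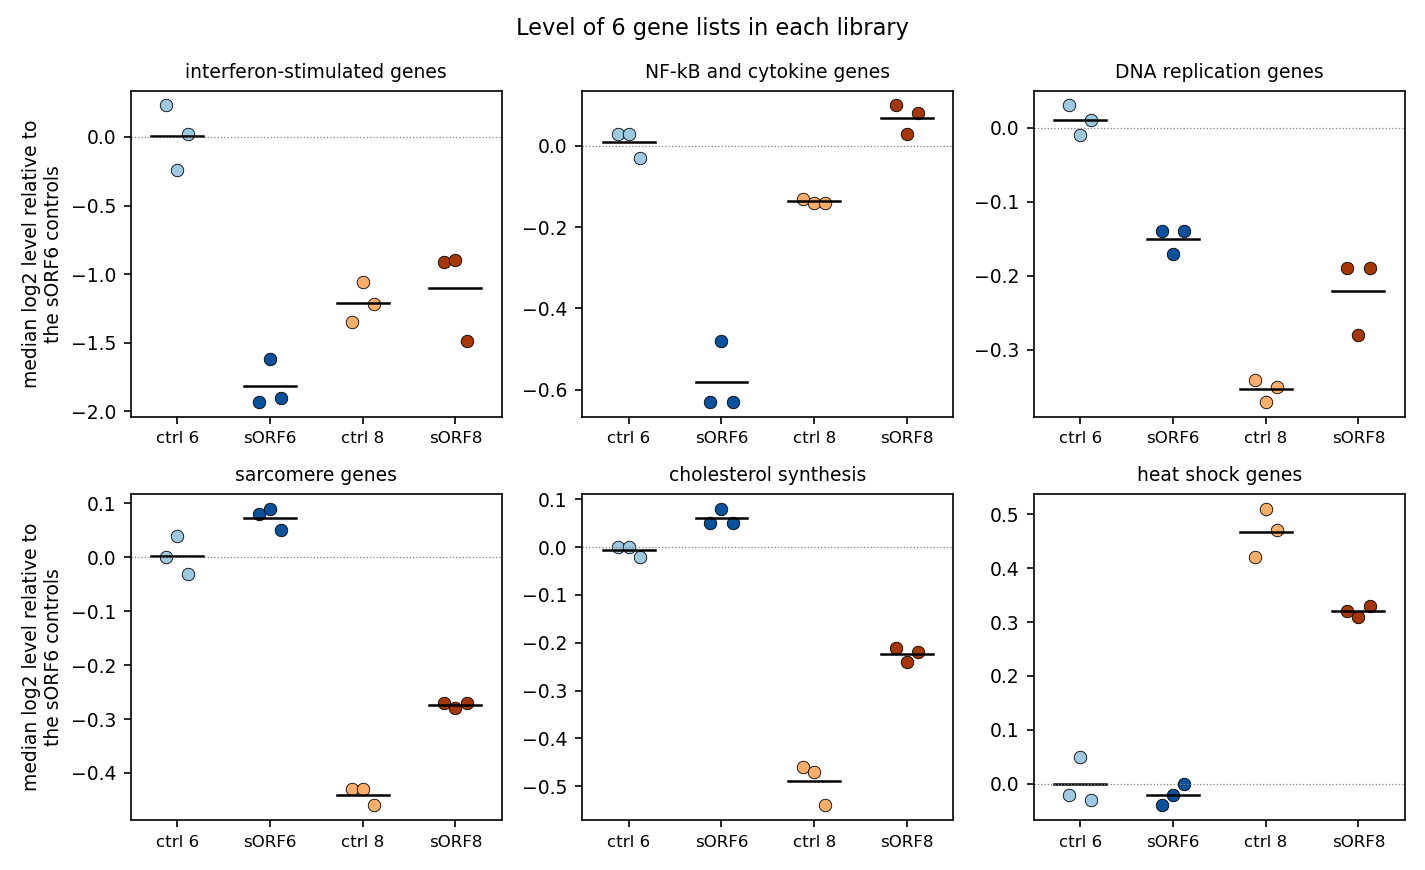
Each point is 1 library, placed at the median over the members of a gene list of the log2 level relative to the mean of the sORF6 controls; lines mark group means and the vertical axes differ between panels. Interferon-stimulated genes range from -1.93 to -1.62 with sORF6 and from -1.35 to -1.06 in the sORF8 controls, while sarcomere and cholesterol synthesis genes are lowest in the sORF8 controls and heat shock genes are highest there.

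Cholesterol synthesis genes were called with sORF8 and not with sORF6, and the difference was called for part of them. Of 23 tested, 15 rose and 0 fell with sORF8 (median 0.25), 0 were called with sORF6 (median 0.06), and 8 were lower in the difference (median -0.21). Fdps, which makes farnesyl diphosphate, measured 690, 743 and 662 CPM in the sORF6 controls and 673, 743 and 717 CPM with sORF6, against 394, 382 and 400 CPM in the sORF8 controls and 541, 499 and 541 CPM with sORF8. Its difference was -0.40 ± 0.06 (adjusted p = 5.80e-04), and the sORF8 libraries stayed below every sORF6 library. The sterol sensor Insig1 (-0.29 ± 0.05) and the desaturase Sc5d (-0.27 ± 0.05) also differed. In the controls, 20 of the 23 were lower and 0 higher in the sORF8 experiment. The sterol regulatory element, searched as TCACNCCAC on both strands, was found in 0 of the 15 members with a promoter entry and in 0.976% of all promoters.

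Chaperones of the endoplasmic reticulum behaved alike, with 9 of 20 higher and 0 lower with sORF8, 0 called with sORF6 and 5 lower in the difference. Hspa5, the main chaperone of that compartment, measured 1449, 1482 and 1427 CPM in the sORF6 controls and 1429, 1479 and 1448 CPM with sORF6, against 1323, 1327 and 1327 CPM in the sORF8 controls and 1572, 1500 and 1622 CPM with sORF8. It differed by -0.24 ± 0.04 (adjusted p = 0.00225), and here the sORF8 libraries rose above all others. The 5 lower in the difference were 2 without sORF8 replicate 1 and 3 without sORF6 control replicate 1 or 3, sORF6 replicate 1 or 3, sORF8 control replicate 2 or 3 or sORF8 replicate 3.

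Cytosolic heat shock genes and antioxidant genes went the other way with sORF8. Of 17 heat shock genes, 10 fell and 0 rose with sORF8 (median -0.20), 1, Hspb8, fell with sORF6, and 4 were higher in the difference. The call of Hspb8 was lost without sORF6 control replicate 1 or 2 or any sORF6 library. The constitutive chaperone Hspa8 measured 1745, 1864 and 1731 CPM in the sORF6 controls and 1800, 1885 and 1858 CPM with sORF6, against 2827, 2881 and 3032 CPM in the sORF8 controls and 2183, 2265 and 2268 CPM with sORF8. Its difference was 0.43 ± 0.05 (adjusted p = 1.02e-05), and the sORF8 libraries lay between their controls and the sORF6 experiment. Of 26 NRF2 and antioxidant genes, 8 fell and 0 rose with sORF8, 1 fell with sORF6 and 4 were higher in the difference: Nqo1, Srxn1, Txnrd1 and Gstm1. Srxn1, a sulfiredoxin, measured 17.0, 15.0 and 15.6 CPM in the sORF6 controls and 14.3, 17.5 and 16.2 CPM with sORF6, against 86.8, 85.4 and 87.9 CPM in the sORF8 controls and 56.9, 60.6 and 60.1 CPM with sORF8. The large gap was between the experiments, 2.45 ± 0.07 between the controls, and the difference of responses was 0.56 ± 0.09 (adjusted p = 0.00105). Between the controls, 16 of the 17 heat shock genes and 22 of the 26 antioxidant genes were higher in the sORF8 controls.

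The genes higher in the difference were fewer and smaller in size than those lower. Of the 548, 7 were at least 2-fold higher and 149 at least 2-fold lower. The scavenger receptor Stab1 led the named ones: it measured 4.77, 4.69 and 4.96 CPM in the sORF6 controls and 12, 11.0 and 11.0 CPM with sORF6, against 5.17, 5.34 and 4.45 CPM in the sORF8 controls and 5.24, 3.59 and 3.99 CPM with sORF8. Only the sORF6 libraries stood out, from control levels that overlapped. Stab1 rose with sORF6 by 1.24 ± 0.14, a 2.36-fold rise, and its difference was 1.46 ± 0.20 (adjusted p = 1.27e-04). Dlk1, a Notch-like ligand, measured 13.8, 13.1 and 12.7 CPM in the sORF6 controls and 18.9, 20.6 and 22.5 CPM with sORF6, against 11.9, 12.6 and 11.7 CPM in the sORF8 controls and 10.5, 9.80 and 12.2 CPM with sORF8, a difference of 0.80 ± 0.15 (adjusted p = 0.00333). Fam180a followed with 0.87 ± 0.15 and the growth factor Ptn with 0.72 ± 0.13, the latter not called for sORF6 without sORF6 control replicate 1 (0.39, adjusted p = 0.0554) or 3 (0.35, 0.0730) or sORF6 replicate 1 (0.29, 0.120). Anxa3 differed by 0.75 ± 0.13 and fell with sORF8 (-0.70 ± 0.09), from sORF8 control levels of 30.7, 32.1 and 32.9 CPM against 13.1, 11.4 and 13.3 CPM in the sORF6 controls.

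Among genes of energy metabolism, 1 of 28 nuclear-encoded subunits of oxidative phosphorylation was lower in the difference (3.57%, against 2.82% of all genes), as were 0 of 23 fatty acid oxidation genes and 2 of 21 glycolysis genes. In the first of these lists all 28 values lay below 0, with a median of -0.15. Of the first and second list, 27 and 20 of them were lower in the sORF8 controls than in the sORF6 controls. Slc2a4, the insulin-responsive glucose transporter of the glycolysis list, measured 44.1, 53.9 and 50.9 CPM in the sORF6 controls and 33.3, 33.9 and 34.6 CPM with sORF6, against 28.7, 32.0 and 30.2 CPM in the sORF8 controls and 37.8, 33.8 and 33.2 CPM with sORF8. It fell with sORF6 by 0.55 ± 0.08 on the log2 scale and differed by -0.75 ± 0.11 (adjusted p = 3.15e-04). Lactate dehydrogenase Ldhb differed by -0.33 ± 0.07 and rose with sORF8 by 0.32 ± 0.05. Cytosolic ribosomal protein genes held 0 called differences among 27, while 5 fell with sORF8 (18.5%, against 1.72% of all genes). Between the controls, 25 of the 27 were higher and 0 lower in the sORF8 controls (median 0.32). In 26 of the 27 all sORF8 libraries lay below all of their controls, as did 12.9% of all genes tested.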

How the data were processed

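RNA was sequenced from 18 libraries in 6 groups of 3. Reads were processed with HISAT2 2.0.4, RSEM 1.2.12 and DESeq2 1.4.5 against Rnor_6.0, per the submitters' processing notes, which give no order or settings, and strandedness is not stated in them. The authors deposited an expected count and an FPKM value (a count scaled to gene length and library size) for each gene and library, per the file headers. The log2 fold changes and p-values of the authors' own comparisons, headed degseq per the file headers, were not used.

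Expected counts were rounded to whole numbers. All 18 libraries were fitted together in edgeR 4.0.16 (R 4.3.3; TMM scaling, edgeR's default filter on low counts, quasi-likelihood test with 12 residual degrees of freedom), and p-values were adjusted by Benjamini-Hochberg over all 14870 genes. The biological coefficient of variation was 6.9%. The test was checked on simulated data with known changes in genes drawn from all those tested. For the difference of responses it recovered 28% of 1.25-fold, 50% of 1.5-fold, 77% of 2-fold and 87% of 4-fold changes, and called 16 of 14470 unchanged genes. At 1.25-fold it recovered 42% of changes with sORF6 and 44% with sORF8. A gene that was not called may therefore still have changed by a small amount. FPKM served for sums and for the Myh6 to Myh7 ratio. Promoter sequences were RefSeq's (GRCr8). Genes were named by rule: the 10 largest differences in each direction with a called response and mean log2 CPM of at least 1, 8 genes of each pattern called in both responses, 3 members per list with the smallest p, and a fixed set. Other list members given by name, and Srgn, were chosen after their values were seen. Some named genes are not reported here. Members and lists were chosen with earlier results of these data known. Alternatives were DESeq2 1.42.0, its size factors, no filter, the 12 libraries alone, limma 3.58.1 on log2(FPKM + 1) and log2(FPKM + 0.1), a replicate block, a gene length correction, both together and each library left out; leaving out both libraries that stood apart was added after seeing the data.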

Additional observations from a re-analysis of the deposited data

Results flagged for a closer look

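The difference of responses (sORF6 minus sORF8) was itself tested as an interaction in edgeR's quasi-likelihood test, and 548 genes passed. The values below are its log2 size in the reported genes named by the naming rule that passed, each from 3 libraries in each of the 4 groups. The sORF and the experiment it was measured in cannot be told apart in any of them.

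Among interferon-stimulated genes the difference was Oas1a (-3.57), Usp18 (-3.52), Rtp4 (-3.46), Irf7 (-3.30), Uba7 (-3.15), Mx2 (-3.06), Isg15 (-2.77), Oas1b (-2.71) and Lgals3bp (-2.11). Inflammatory genes of the NF-kB list stood at Nos2 (-4.23), Il1b (-3.01), Cxcl1 (-2.43), Ccl2 (-2.02), Cxcl10 (-1.73) and Lcn2 (-1.64). Replication and mitotic genes stood at Mcm5 (-0.56), Mcm6 (-0.47), Mcm3 (-0.46) and Anln (-0.36). Leukocyte markers stood at Itgam (-1.31), Itgb2 (-1.18) and Adgre1 (-0.89). Cardiac contractile, fetal, calcium and channel genes stood at Myh6 (-1.12), Myl7 (-0.60), Hrc (-0.45), Acta2 (-0.37), Tmem38a (-0.36), Myl2 (-0.33), Kcnh2 (-0.31), Myom1 (-0.29), Abcc9 (-0.29), Atp2a2 (-0.25), Actn2 (-0.22), Gja1 (0.24) and Myl4 (0.35). Metabolic and sterol genes stood at Slc2a4 (-0.75), Fdps (-0.40), Ldhb (-0.33), Insig1 (-0.29), Sc5d (-0.27) and Atp5f1b (-0.21). Chaperone, heat shock and antioxidant genes stood at Sdf2l1 (-0.54), Pdia6 (-0.25), Hspa5 (-0.24), Hsp90ab1 (0.25), Dnaja1 (0.34), Hspa8 (0.43), Nqo1 (0.44), Srxn1 (0.56) and Gstm1 (0.62). The other named genes lower in the difference were Cxcl3 (-3.57), Ccl3 (-3.21), Mmp12 (-2.28), Mmp9 (-2.06), Plek (-1.94), Cebpb (-0.52), Junb (-0.29), Ctsd (-0.22) and Grn (-0.20). Those higher were Vim (0.22), Perp (0.30), Klf6 (0.32), Inhba (0.39), Cav1 (0.40), Tbx18 (0.40), Fbxl7 (0.44), Ptgr1 (0.52), Efemp1 (0.55), Fosl1 (0.58), Runx2 (0.64), Cfap157 (0.65), Popdc3 (0.67), Anlnl1 (0.70), Ptn (0.72), Anxa3 (0.75), Dlk1 (0.80), Fam180a (0.87) and Stab1 (1.46).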

How the results depend on the processing

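Among the 100 named genes, no called fold change of a response or of the difference changed sign under any alternative. Other genes and the control comparison were not checked for this, and counts of called genes moved as given below. The difference of responses was called in 548 genes as reported and in 550 with DESeq2 size factors, 561 with DESeq2, 493 without a filter, 538 with the 12 libraries alone, and 516 and 522 with limma on log2(FPKM + 1) and log2(FPKM + 0.1). Genes higher with sORF6 were 92 and 83 in these limma fits. Over 12465 genes, effective gene length correlated with the response to sORF6 by a Spearman rho of 0.23 and with that to sORF8 by 0.06. For the difference rho was 0.12, and for the control comparison 0.00. Small changes with sORF6 may therefore partly follow gene length, which was not tested. With the length correction the difference was higher in 215 genes, sORF8 had 903 calls (452 lower) and 49 genes shared a direction. Without both libraries that stood apart the difference was higher in 196 genes, sORF8 had 988 calls (512 higher, 476 lower), and 56 genes shared a direction and 54 were opposite. Whether replicate numbers pair the samples was not settled. In their deviations from the group means, same-numbered virus and control libraries correlated by 0.178, 0.055 and 0.025 for sORF6. For sORF8 they correlated by -0.022, 0.108 and 0.031. Libraries with different numbers correlated by -0.134 to 0.083 for sORF6 and by -0.1 to 0.069 for sORF8. The highest value in each experiment was thus a same-numbered pair, and all values were small. With the replicate block the difference was called in 494 genes and the control comparison in 3800 (1869 higher, 1931 lower); with the block and the length correction sORF8 had 396 lower calls, 49 genes shared a direction and 51 were opposite.

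Leaving out each library in turn gave 405 to 582 called differences (78 to 139 higher, 326 to 443 lower), 368 to 557 calls for sORF6 (69 to 136 higher, 294 to 421 lower) and 264 to 738 for sORF8 (153 to 402 higher, 111 to 336 lower). The control comparison held 4949 to 5614 calls (2409 to 2771 higher, 2540 to 2852 lower). Genes called in both responses were 15 to 39 in the same direction and 16 to 35 in opposite directions. Of the 100 named genes, 80 were called for the difference, and 57 of these under every alternative; 57 were called for sORF6, 42 of them under every alternative, and 67 for sORF8, 39 of them under every alternative. The cause of these changes was not tested. Depth limits the genes with few counts: Zbp1, below 1 CPM in all 12 libraries, had a difference of -3.64 that was not called (adjusted p = 0.139).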
